A study of Arabidopsis thaliana with 4 samples.

Results

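The genes described here are 50 regulators of the shoot meristem, of organ boundaries, of leaf polarity and of the flower, chosen as a list of loci from WUS (AT2G17950) to the late floral organ genes, out of 27444 nuclear protein-coding genes. Each was taken as its annotated gene plus 1 kb upstream of the start. By role they were 11 genes of meristem maintenance and of the KNOX and BELL families, 5 organ boundary genes, 6 floral meristem identity genes, 13 floral organ genes, 6 flowering time genes and 9 leaf and polarity genes. The list includes UFO, an F-box protein, TFL1, a PEBP protein, and BOP1 and BOP2, transcriptional co-activators, which are not DNA-binding transcription factors. Enzymatic methyl-seq, which reads unmethylated cytosines as T and methylated ones as C, was run on 4 libraries of Arabidopsis thaliana shoot apices. The 2 mock libraries came from apices given 0.025% of the wetting agent Silwet, and the 2 SNP libraries from apices given Silwet with 1 mM sodium nitroprusside, a nitric oxide donor, both for 24 h. The labels name the genotype Col-0 in both groups and no mutation. The study's methods describe ap1/cal apices, which are masses of proliferating inflorescence and young floral meristems. For the RNA of the study they write ap1/cal (Col-0), so the label may name the background alone. By the methods, both groups carry mutations in AP1 and CAL, themselves members of the list. No RNA was measured in these libraries, so the labelled tissue could not be set against marker expression.

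In plants, cytosines are methylated in 3 sequence contexts, CG, CHG and CHH, where H is any base but G. Methylation in CG alone is common inside the transcribed part of moderately and broadly expressed genes, whereas methylation in all contexts together marks transposons and repeats and is set there by the RNA-directed DNA methylation pathway, in which ARGONAUTE 4 acts, and by chromomethylases. Genes with narrow, developmentally controlled expression, as most meristem and floral regulators have, are known to carry little of either, and many of them are controlled by Polycomb group proteins. The comparison asks which of these genes carry methylation that is seen in every library and whether it differs after the nitric oxide donor.

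Each library held between 3857352 and 4134559 nuclear sites with a median depth of 8 to 10 reads. A site stands in a library's list only if it was called methylated, with at least 2 methylated reads, so a cytosine that is not listed was either not covered or not called. A cytosine listed in all 4 libraries is called a shared site below. Its level is the percentage of methylated reads, and the level of a gene is the sum of methylated reads over the sum of reads at its shared sites. Shared sites of these genes had 2 to 26 reads in a library, with a library median of 9 or 10, and 37 of them had at least 10 reads in every library. The labels do not say that the libraries of a group came from separate batches of plants, so p-values measure the spread between these libraries, and the confidence intervals given cover counting error only.

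The methylation of 4 genes is shown on their sequence, since these stretches carry dense runs of shared sites. Each is read from the TAIR10.1 assembly in the direction of the gene, in lower case, and a capital C marks a shared site on the strand shown and a capital G a shared site on the opposite strand. The RPL block (chr5:394574-394710, plus strand, 857 to 993 bp before the start) has capitals singly and in short runs of C or G, and no CG at all. The TFL1 block (chr5:1026518-1026637, minus strand, 646 to 765 bp before the start) has capitals almost only in CG pairs. The windows inside PHB (chr2:14641125-14641244, minus strand) and REV (chr5:24401297-24401416, plus strand), which each span the end of an intron and the coding sequence after it, have them in CG pairs alone. In REV 6 of the 14 marked letters are in the intron.
RPL: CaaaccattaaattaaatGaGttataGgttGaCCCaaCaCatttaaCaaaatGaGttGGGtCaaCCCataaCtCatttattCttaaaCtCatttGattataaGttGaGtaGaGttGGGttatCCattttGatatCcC
TFL1: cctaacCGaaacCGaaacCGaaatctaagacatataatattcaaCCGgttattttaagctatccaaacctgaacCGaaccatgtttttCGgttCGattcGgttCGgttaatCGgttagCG
PHB: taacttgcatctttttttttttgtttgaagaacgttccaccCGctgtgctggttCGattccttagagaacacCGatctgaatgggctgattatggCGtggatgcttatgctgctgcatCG
REV: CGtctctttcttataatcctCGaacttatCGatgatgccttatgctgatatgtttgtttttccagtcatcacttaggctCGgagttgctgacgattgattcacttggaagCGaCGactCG

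Of the 50 genes, 17 had at least 1 shared site and 33 had none. The 17 carriers are 34% of the list, against 69.4% of all protein-coding genes. With at least 10 shared sites there were 9 genes, or 18%, against 54.7% of all genes, although the regions of the list were longer, with a median of 3866 bp against 3078 bp. A shared CHG or CHH site was present in 3 genes, RPL, PHV and TFL1, or 6% of the list, against 22.8% of all genes. The carriers held 445 shared sites, 372 in CG, 11 in CHG and 62 in CHH. Of these, 328 lay inside the gene, all in CG, and 117 upstream, and 264 of the 445 belonged to the HD-ZIP III genes PHB, PHV and REV. Most shared CG sites came as a pair, and 356 of the 372 had the cytosine of the opposite strand listed in all libraries too.

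**Figure D1:**
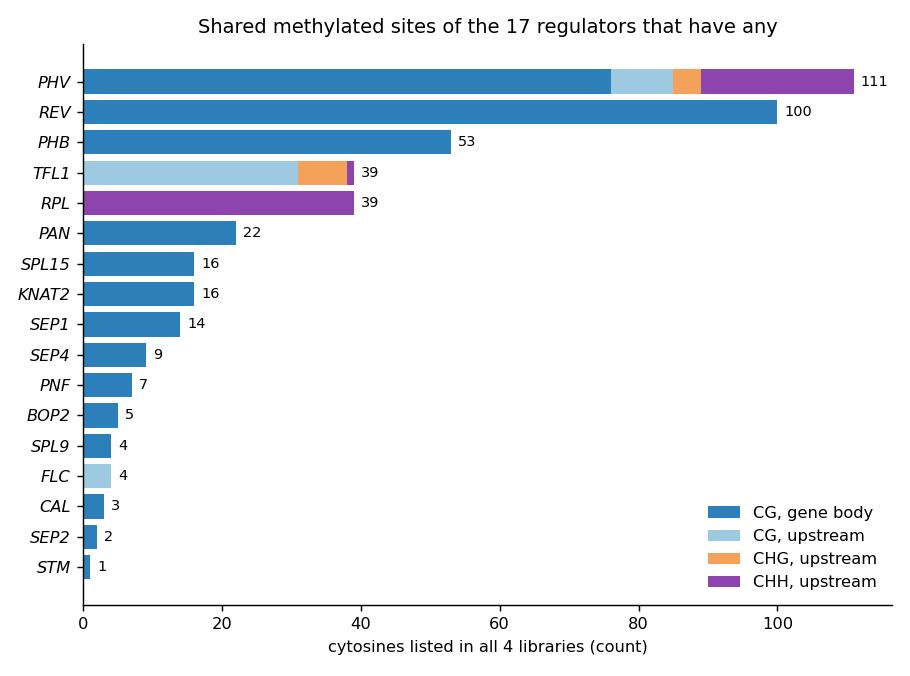
Number of cytosines listed in all 4 libraries for the 17 genes that have any, by context and by position inside the gene or up to 1 kb upstream. PHV, with 111 sites, and REV, with 100, hold the longest bars, and the CHG and CHH sites are seen only upstream of PHV, TFL1 and RPL.

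By role, the carriers were 4 of 11 genes of meristem maintenance and the KNOX and BELL families, 1 of 5 boundary genes, 2 of 6 floral meristem identity genes, 4 of 13 floral organ genes, 3 of 6 flowering time genes and 3 of 9 leaf and polarity genes. The leaf and polarity group held 264 shared sites, all in the HD-ZIP III genes, while its other members FIL, YAB3, KAN1, KAN2, AS1 and AS2 had none. The meristem group held 63 sites in RPL, KNAT2, PNF and STM, the floral organ group 47 in SEP1, SEP2, SEP4 and PAN, the floral meristem identity group 42 in TFL1 and CAL, the flowering time group 24 in SPL15, FLC and SPL9, and the boundary group 5 in BOP2.

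PHB (AT2G34710), PHV (AT1G30490) and REV (AT5G60690) encode HD-ZIP III transcription factors that specify the upper side of the leaf and keep the shoot meristem active, and their transcripts are cut by miR165 and miR166. PHB had 53 shared sites, all CG and all in coding sequence. REV had 100, all CG, 94 in coding sequence and 6 in introns. The 76 sites inside PHV were also all CG, 70 in coding sequence and 6 in introns. These were 23.0% of the CG cytosines of the PHB gene, 36.9% of those of PHV and 40.0% of those of REV. Of all protein-coding genes, 74.7% had a smaller share than PHB, 86.9% than PHV and 88.9% than REV.

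Inside the 3 genes, the shared sites began after the microRNA site. The mature miR165a (chr1:78932-78952, minus strand) is printed with bases 2 to 8 in capitals and DNA letters, and the matching sites in the spliced coding sequences of PHB (chr2:14642530-14642666), PHV (chr1:10799330-10799445) and REV (chr5:24398787-24398898) with the bases that pair with it in capitals, to show that they differ from a perfect match at 3 positions each.
miR165a: tCGGACCAggcttcatccccc
PHB site: ttGGGATGAAGCCTGGTCCGg
PHV site: ttGGGATGAAGCCTGGTCCGg
REV site: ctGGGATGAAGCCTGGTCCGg
The site is split by an intron of 116 bp in PHB, 95 bp in PHV and 91 bp in REV, and begins 1689, 1648 and 1806 bp from the start of the gene. All 53 shared sites of PHB, all 76 of the PHV gene and all 100 of REV lay 3′ of it, the nearest at 17 bp, 209 bp and 195 bp. The 5′ parts held 60, 48 and 82 CG cytosines, and none of them was shared. None of the cytosines in the 3 microRNA sites was shared. For comparison, 3752 genes had at least 50 shared CG sites inside the gene, and 706 of them, or 18.8%, had none in the first 34.6% of their length, the part that lies before the site in REV. Over all genes, 17.2% of shared CG sites inside genes lay in that part.

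The SQUAMOSA promoter-binding genes, SPL9 (AT2G42200) and SPL15 (AT3G57920), promote flowering with age and are targets of miR156. All 4 shared sites of SPL9 and all 16 of SPL15 lay 3′ of the miR156 site, the nearest at 208 bp and 69 bp. The 4 of SPL9 stood within 10 bp, and the 16 of SPL15 also lie in a neighbouring gene. The miR156 site begins after 75.8% of the length of SPL9 and 65.9% of that of SPL15. How often shared sites of all genes are confined to such a last part was not computed. CUC1 and CUC2, targets of miR164, HAM1, HAM2 and HAM3, targets of miR171, and AP2, a target of miR172, had no shared site at all.

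**Figure D2:**
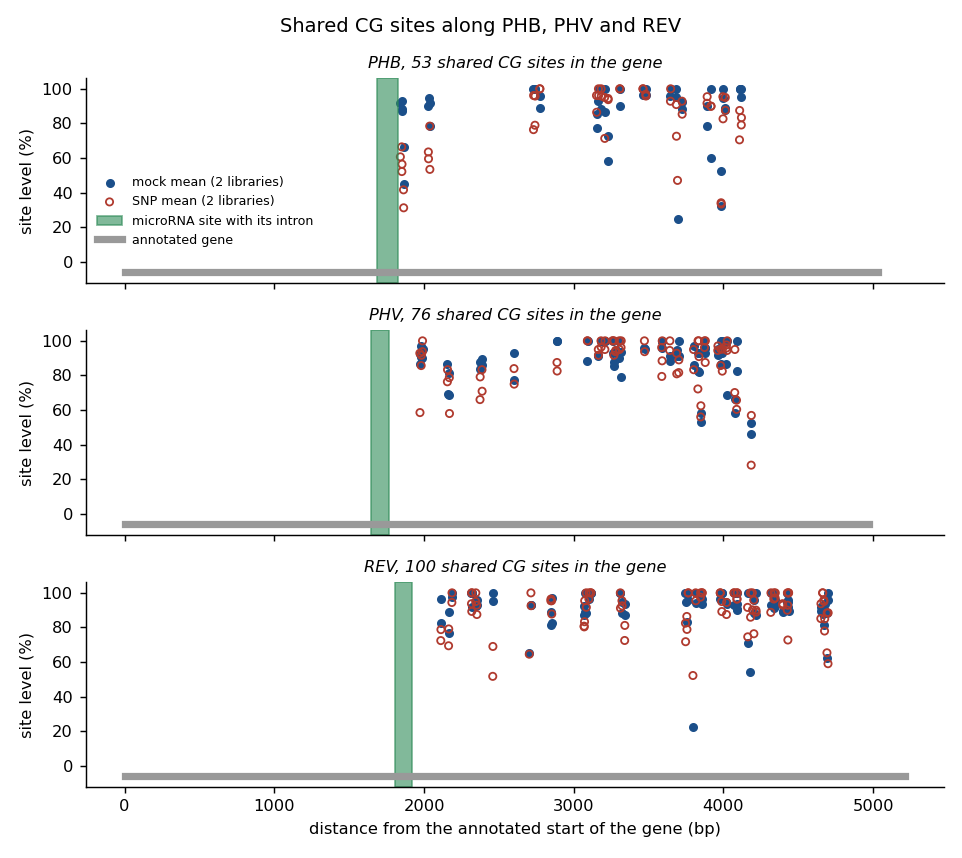
Level of each shared CG site (percent of reads methylated) against its distance from the annotated start in PHB, PHV and REV, as the mean of the 2 mock libraries (filled) and of the 2 SNP libraries (open). The 53, 76 and 100 sites all lie to the right of the green band, which spans the site of miR165 and its sister and the intron inside it.

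At the shared sites of the HD-ZIP III genes, levels were high in every library. A site has to be called methylated in all 4 libraries to be shared, so sites of low level tend to be left out. The level of PHB was 87.7% and 87.5% in the mock libraries, in the order of their replicate numbers, against 80.8% and 82.5% in the SNP libraries. The SNP values lay under the mock values without overlap, and the means differed by -5.92 percentage points, against a pooled SD of 0.818 points. The level was lower in SNP at 31 of the 53 sites, higher at 19 and equal at 3. On the opposite strand to the gene the means differed by -9.54 points, without overlap. On the strand of the gene they differed by -1.80 points, and the groups overlapped. In edgeR's quasi-likelihood test across 15006 regions the log2 odds ratio was -0.66, with a Benjamini-Hochberg adjusted p of 0.143, so PHB was not called.

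The level of REV was 91.5% and 93.6% in mock and 91.1% and 90.0% in SNP. The SNP libraries were again the lower ones, and the means differed by -1.99 points (log2 odds ratio -0.36, edgeR adjusted p = 0.355). Inside PHV the level was 89.6% and 88.5% in mock and 88.1% and 86.4% in SNP, a mean difference of -1.84 points. With its upstream block PHV stood at 81.7%, 78.3%, 81.2% and 80.9% in mock 1, mock 2, SNP 1 and SNP 2, and the groups overlapped (log2 odds ratio 0.10, edgeR adjusted p = 0.819).

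RPL (AT5G02030), a BELL homeodomain gene needed for stem and fruit patterning and for meristem maintenance together with KNOX proteins, had 39 shared sites. All were CHH and all lay in the stretch printed above, where the reference has 43 CHH cytosines and no CG or CHG cytosine, and no annotated gene. In mock 1 203 of 280 reads were methylated, a level of 72.5%, and in mock 2 221 of 381, or 58.0%. In SNP 1 the share was 220 of 279 reads, or 78.9%, and in SNP 2 it was 229 of 280, or 81.8%. Both SNP libraries were above both mock libraries, and mock 2 was the lowest. Mock 2 also had the most reads at these sites, and the part of depth in the result was not tested.

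RPL rose from a mean of 65.2% ± 10.3 (SD, n = 2) in mock to 80.3% ± 2.07 (SD, n = 2) in SNP, a difference of 15.1 points. The level was higher in SNP at 33 of the 39 sites, lower at 4 and equal at 2. It was the only one of the 9 genes tested that passed the test (edgeR log2 odds ratio 1.13, adjusted p = 0.0369). Of all 15006 regions 3.95% were called, and 0.147% were called higher in SNP. On the plus strand the levels were 69.3% and 71.9% in mock and 74.4% and 89.9% in SNP, and on the minus strand 75.5% and 46.7% in mock and 86.4% and 76.6% in SNP. The call was lost when mock 2 was left out (log2 odds ratio 0.57, edgeR adjusted p = 0.489), without SNP 1 (1.23, edgeR adjusted p = 0.155) or SNP 2 (0.69, edgeR adjusted p = 0.446), and when each site needed 5 reads in every library (1.10, 26 sites, edgeR adjusted p = 0.0953), and it was kept without mock 1 (1.56, edgeR adjusted p = 0.00688). Reads cover several of these sites at once, so the sites are not independent measurements.

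The block continued beyond the 1 kb limit. Between 1 and 2 kb upstream of RPL there were 97 more shared sites, 55 in CG, 13 in CHG and 29 in CHH, starting 1003 bp from the start of the gene. At the CHH sites among these the level was 66.0% and 52.5% in mock and 49.1% and 60.9% in SNP, so the groups overlapped there. Mock 2 was below mock 1 in both stretches.

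PHV had 35 shared sites upstream, 9 in CG, 4 in CHG and 22 in CHH. The CHH level was 63.1% and 57.7% in mock and 57.9% and 67.3% in SNP, with overlapping groups. The CHG level was 77.8% and 73.5% in mock and 67.6% and 82.2% in SNP, overlapping as well. At the 9 CG sites the level was 61.4% and 67.2% in mock and 76.2% and 75.8% in SNP, higher in both SNP libraries by 11.7 points in the mean, a difference that an exact permutation of 2 against 2 libraries cannot call, since it gives no p under 1/3. A further 22 shared sites lay between 1 and 2 kb upstream of PHV.

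TFL1 (AT5G03840), which keeps the inflorescence meristem indeterminate by opposing LFY and AP1, had no shared site inside the gene and 39 upstream, between 624 and 975 bp before the start. They were 31 of the 32 CG cytosines in that stretch, 7 of 21 CHG and 1 of 69 CHH cytosines. The level over all 39 was 86.3% and 84.4% in mock and 82.8% in both SNP libraries. The SNP libraries were lower by 2.55 points in the mean (log2 odds ratio -0.28, edgeR adjusted p = 0.702). The CG level was 94.6% and 90.6% in mock and 89.7% and 90.1% in SNP, and the CHG level 67.9% and 67.4% in mock and 61.4% and 56.8% in SNP. The single CHH site went the other way, with 16.7% and 25% in mock and 33.3% and 44.4% in SNP, from 2 to 4 methylated reads of 8 to 12 in a library. TFL1 also had the most sites listed in 2 or 3 libraries, 40 and 18. With the shared ones they filled 395 bp within the 1 kb limit with 34 CG, 21 CHG and 42 CHH sites. Beyond that limit, 26 more shared sites, 25 in CG and 1 in CHG, lay 1003 to 1181 bp upstream of TFL1. The printed stretch holds the letters CGGTT 10 times, counted on both strands. Of the 27443 windows of the same length and distance before a protein-coding gene, 1 held as many, that of TFL1 itself, and 11.8% held the letters at all. This motif was chosen after the sequence was seen.

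**Figure D3:**
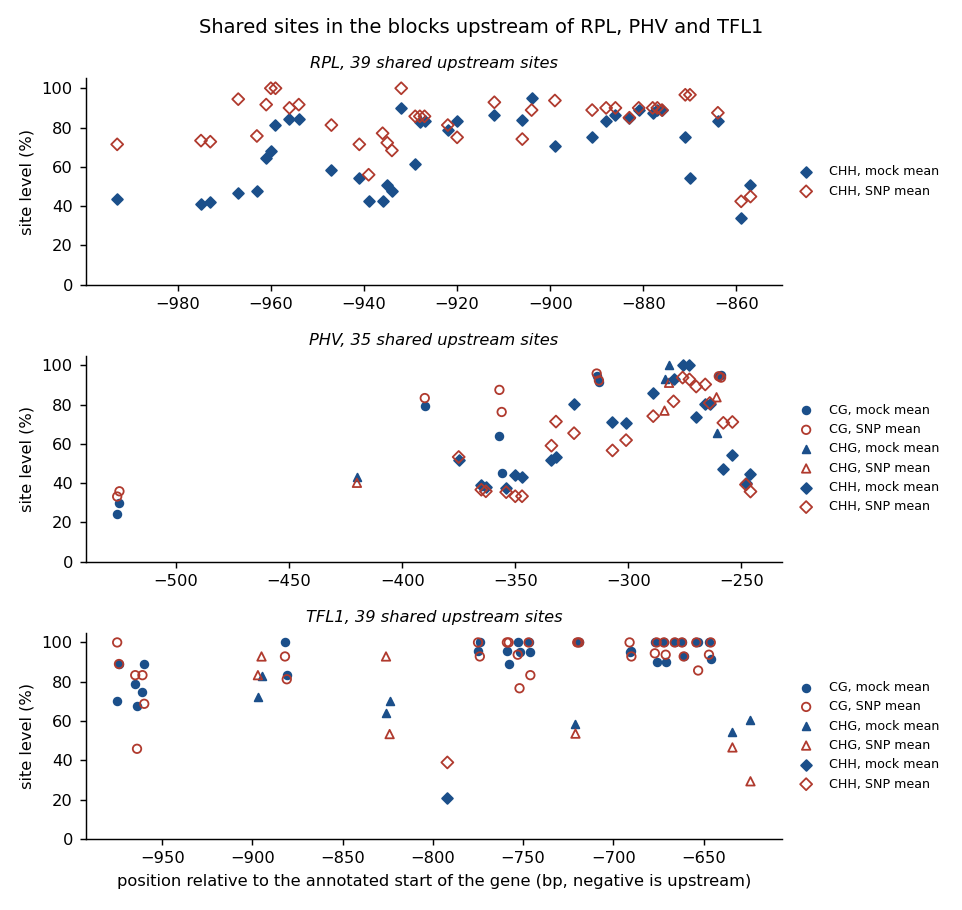
Level of each shared site upstream of RPL, PHV and TFL1 against its position before the annotated start, as the mean of the 2 mock libraries (filled blue) and of the 2 SNP libraries (open red), with a symbol for each context. In RPL the open symbols lie above the filled ones at 33 of 39 sites, and in PHV and TFL1 they lie on both sides.

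A further 4 genes had 10 or more shared sites, all CG. KNAT2 (AT1G70510), a KNOX homeobox gene of the meristem and carpel, had 16 in 89 bp of its annotated 3′ UTR, and these were all 16 CG cytosines of that stretch, with none of its 7 CHG and 15 CHH cytosines shared. Its level was 93.3% and 88.8% in mock and 97.8% and 93.6% in SNP, above both mock libraries by a small margin in SNP 2. The difference of 4.67 points did not pass the test (log2 odds ratio 1.05, edgeR adjusted p = 0.372).

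SEP1 (AT5G15800), one of the redundant MADS-box cofactors of all floral organs, had 14 shared sites, 12 of them in coding sequence. Its level was 85.7% and 90.4% in mock and 95.9% and 91.7% in SNP, again without overlap, and the difference of 5.79 points was not called (log2 odds ratio 1.00, edgeR adjusted p = 0.372). PAN (AT1G68640), a bZIP factor that sets floral organ number, had 22 in coding sequence, with 83.6% and 84.1% in mock against 84.7% and 81.9% in SNP. SPL15 had 16, with 85.4% and 79.1% in mock against 80.1% and 82.3% in SNP. For PAN and SPL15 the groups overlapped (edgeR adjusted p = 0.965 and 0.918). All 16 sites of SPL15 and 2 of PAN lie in a neighbouring gene as well. For SPL15 this gene is AT3G57910 on the opposite strand.

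**Figure D4:**
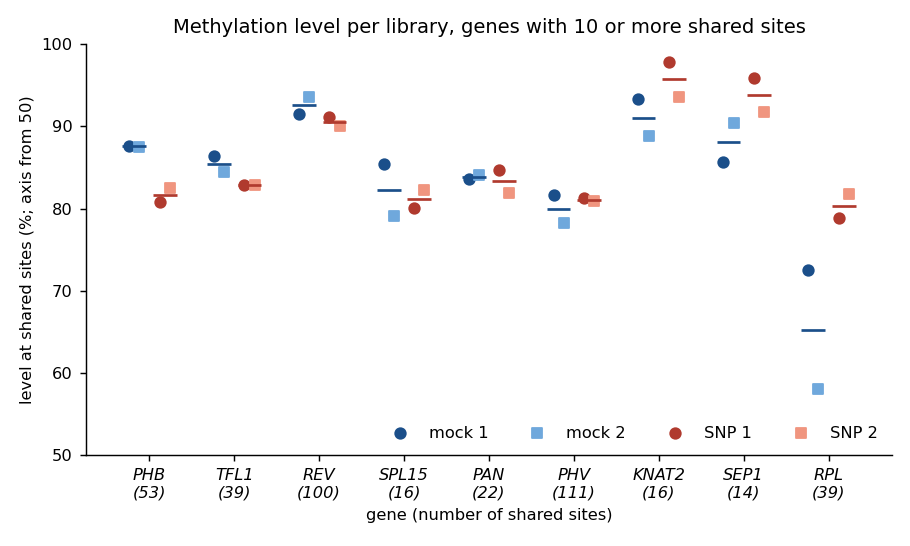
Methylation level at shared sites (percent of reads, axis from 50) in each of the 4 libraries for the 9 genes with 10 or more shared sites, with lines at the group means. RPL, with 58.0% to 81.8%, shows the widest spread, and the other 8 genes stay between 78.3% and 97.8%.

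The remaining 8 carriers had 1 to 9 shared sites each, all CG. SEP4 (AT2G03710), another SEP cofactor, had 9, of which 8 lay in an intron and 1 in coding sequence, with levels of 100% (47 of 47 reads), 89.9%, 80.6% and 81.2% in mock 1, mock 2, SNP 1 and SNP 2. The SNP values lay under the mock values. In the edgeR fit of regions with at least 3 sites SEP4 was not called (log2 odds ratio -1.85, adjusted p = 0.141). PNF, a BELL gene like RPL, had 7 sites with levels of 59.7% to 87.3%, and the groups overlapped. BOP2, a boundary co-activator, had 5 sites at 55.3% to 69.1%, 4 of them also inside the short gene AT2G41375 on the opposite strand. FLC (AT5G10140), the MADS-box repressor of flowering, had 4 sites upstream, 823 to 847 bp before the start, at 86.4% to 90.2%, and none within the gene. SPL9 had 4 sites at 59.0% to 72.7%, SEP2 a pair of sites at 48.1% to 88.2%, and the homeobox gene STM 1 intron site at 33.3% to 61.5%. In these genes, SEP4 and CAL apart, the groups overlapped.

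CAL (AT1G26310), the MADS-box paralogue of AP1, had 3 shared CG sites in an intron, all on the strand of the gene within 14 bp. On that strand mock 2 stood apart with 100% (17 of 17 reads, 95% exact binomial interval 80.5% to 100%). Mock 1 had 35.3% (12 of 34 reads, 19.8% to 53.5%), SNP 1 25.7% (9 of 35 reads) and SNP 2 24.3% (9 of 37 reads). The SNP values were the lower ones, without overlap. The depth at these sites was 5 or 6 reads in mock 2 and 11 to 13 in the other libraries. CAL was not called in the edgeR fit of regions with at least 3 sites (log2 odds ratio -2.19, adjusted p = 0.118). A further 6 sites of CAL, in CG, CHG and CHH, were listed in 3 libraries, and all 6 stood in the lists of both mock libraries and SNP 1 and not in that of SNP 2. Among them were the opposite-strand partners of the 3 shared CG sites. Their methylated reads were 9 of 11, 8 of 10 and 4 of 10 in mock 1, and 4 of 5, 4 of 6 and 4 of 6 in mock 2. SNP 1 had 6 of 11, 5 of 11 and 3 of 11. At these partners mock 2 did not stand apart from mock 1. Another 8 sites were listed in 2 libraries.

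The 33 genes without a shared site include WUS, the stem cell inducing homeobox gene, all of CUC1, CUC2 and CUC3, the NAC genes of the organ boundary, LFY and AP1, which start the flower, AP2, AP3, PI and AG, the organ identity genes, and the GRAS genes HAM1, HAM2 and HAM3. They were not free of listed sites. Together they held 1490 listed sites, of which 98.3% were listed in a single library, against 97.4% in all 8392 protein-coding genes without a shared site. Exactly 2 methylated reads, the fewest a listed site can have, stood behind 88.8% of their list entries, against 87.5% in those genes and 32.5% in the 17 carriers. Their median density was 11.0 listed sites per kb, against 10.9 for all genes without a shared site.

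WUS had 35 listed sites. The mock lists held 2 and 16 of them and the SNP lists 17 and 0, and no site stood in more than 1 list. Of these, 13 of the mock 2 sites stood on the minus strand within 37 bp, each with 2 methylated reads of 11 to 13. Another 10 sites of SNP 1 stood within 33 bp on the same strand and 6 within 22 bp on the plus strand. Thus 29 of the 35 sites of WUS came from 3 short stretches on 1 strand of 1 library.

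CUC2, a marker of the boundary, had 4 and 6 listed sites in mock and 15 and 1 in SNP, and none in 2 libraries. UFO, a marker of the periphery of the meristem, had 16 and 8 in mock and 0 and 3 in SNP, again each in a single library. The groups overlapped in CUC2, and in UFO both mock numbers were above both SNP numbers. Of the 27 listed sites of UFO, 24 stood in 5 short stretches, each on 1 strand of 1 library. Exactly 2 methylated reads stood behind 26 of its 27 entries. The share of all genes whose numbers do not overlap was not computed. The largest numbers in any 1 library among the genes with no shared site were those of KNAT6, with 6 and 39 in mock and 42 and 47 in SNP, of AP2, with 13 and 6 in mock and 33 and 15 in SNP, and of KAN1, with 32 and 15 in mock and 7 and 12 in SNP. The numbers of these genes did not overlap between groups either, higher in SNP for KNAT6 and AP2 and higher in mock for KAN1. They were named for their large numbers, and no share over all genes was computed for them either. As in UFO, most sites stood in short stretches on 1 strand of 1 library. These held 109 of the 134 listed sites of KNAT6, 48 of the 67 of AP2 and 52 of the 64 of KAN1. KNAT6 is a KNOX gene of the boundary and KAN1 a GARP factor of the lower leaf side, and only KAN1 had any site in 3 libraries.

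AP1 (AT1G69120) had 15 and 27 listed sites in mock and 14 and 16 in SNP. None was shared, but 2 CHG sites of an intron, on opposite strands 2 bp apart, were listed in 3 libraries each and 4 sites nearby in 2, all within 144 bp. At these 2 CHG sites 2 or 3 reads were methylated, of 8 to 14 reads. AP1 and KAN1 are the only genes without a shared site that had a site listed in 3 libraries.

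**Figure D5:**
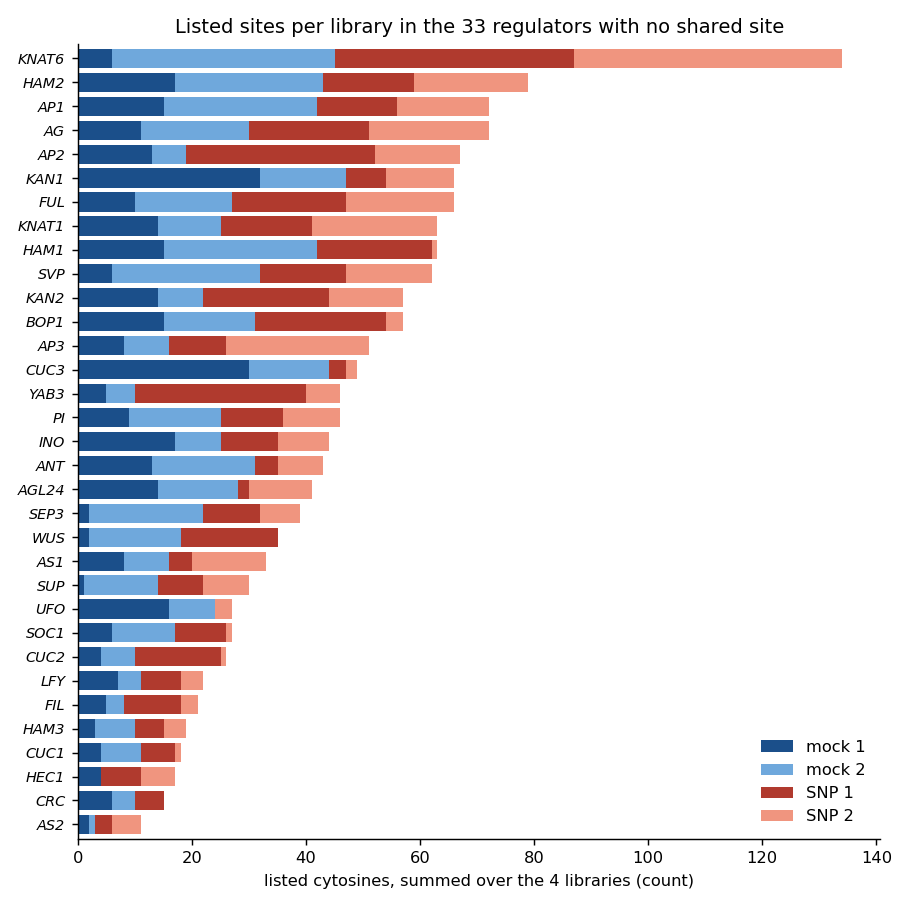
Listed cytosines per library, stacked over the 4 libraries, for the 33 genes without a shared site. KNAT6 has the longest bar, with 134, AS2, CRC, HEC1, CUC1 and HAM3 stay under 20, and the share of each library changes from gene to gene.

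Over all 50 genes, sites in a single library on 1 strand and at most 50 bp from the next, in runs of at least 3, made up 66.8% of the 2409 sites listed in 1 library. There were 297 such runs, at least 1 in each of the 50 genes, with a median span of 24 bp and a longest span of 123 bp. In 244 of them every site had the same number of methylated reads, and 75.7% of their sites were CHH. There were 67 and 78 runs in the mock libraries against 83 and 69 in the SNP libraries. All 50 genes together had 1069 and 1218 listed sites in the mock libraries against 1234 and 1040 in the SNP libraries, so the groups overlapped. Sites listed in both mock libraries and in no SNP library numbered 11, and sites listed in both SNP libraries and in no mock library 16, of 3013 listed in all.

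Summed over the 372 shared CG sites of the list, the level was 87.6% and 87.8% in mock and 85.7% and 84.9% in SNP. The mean difference was -2.45 percentage points against a pooled SD of 0.413 points, and the groups did not overlap. This mean difference pools the reads of CG sites over genes, so it is not the same measure as the median of single regions given below. The same pooled value was not computed over all genes, so the difference is not shown to be particular to the list. Of the 372 sites, 53 were in PHB, 85 in PHV and 100 in REV. The 328 sites inside genes differed by -2.96 points, and the 44 upstream CG sites overlapped between groups, with 85.6% and 82.4% in mock and 86.4% and 85.5% in SNP. The 62 CHH sites had 66.9% and 57.5% in mock and 69.4% and 74.4% in SNP, and without RPL the 23 others had 61.0% and 56.9% in mock and 56.9% and 66.5% in SNP and overlapped. The 11 CHG sites overlapped too.

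Among the 9 genes tested, the SNP values lay wholly under the mock values in 3, PHB, REV and TFL1, against 40.1% of all tested regions, and wholly above them in 3, RPL, KNAT2 and SEP1, against 9.5% of all tested regions. The median difference of the 9, over all contexts, was -0.559 points, against -1.98 points over all 15006 regions tested. The mean level was lower in SNP in 5 of the 9 genes and in 10728 of the 15006 regions. An exact permutation test of a single gene cannot give a p under 1/3 with 2 libraries against 2.

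A list of 28 further regulators from the same families and pathways gave a like picture, with 8 having a shared site and 3 tested. The HD-ZIP III family has 5 members, and its remaining members CNA (AT1G52150) and ATHB8 (AT4G32880), which act in the meristem and the vasculature, both had shared sites, 100 and 23. CNA fell from 81.5% and 83.5% in mock to 75.2% and 70.9% in SNP, and the means differed by -9.48 points (edgeR log2 odds ratio -0.80, adjusted p = 0.00718). The adjusted p was 0.0756 without mock 2 and 0.278 without SNP 2. ATHB8 had 70.0% and 65.8% in mock and 66.8% and 58.0% in SNP, which overlapped (edgeR adjusted p = 0.625). Inside CNA 79 of the 83 shared sites lay 3′ of the microRNA site, none 5′ of it and 2 on the cytosines of the site itself, whereas in ATHB8 12 lay 3′ and 9 lay 5′ of it. The ovule identity gene STK, with 26 sites, had 87.6% in both mock libraries and 84.6% and 81.6% in SNP (edgeR adjusted p = 0.498). No shared site was found in 20 of the 28, among them WOX1, LAS, SHP1, FD, SPL4, SPL5 and LMI1.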

How the data were processed

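EM-seq libraries of shoot apices (2 mock and 2 SNP, grouped by their titles) were sequenced by the authors with paired reads of 75 bases. The submitters' processing notes name FastQC, Bismark and the build TAIR10, without versions. For each called site the deposited lists give the methylation level as a fraction and the depth as a count of reads. Level times depth was whole in every entry, so methylated reads were recovered. At least 99.9998% of nuclear positions matched a cytosine on their own strand in the TAIR10.1 assembly, whose RefSeq annotation was used for genes and microRNAs. That annotation has no transposon features. A list holds called sites only, so a full loss of methylation cannot be seen.

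All analysis used every site listed in the 4 libraries, without a further depth minimum. The methods of the study used 10 reads, which was run as an alternative. Methylated and unmethylated reads were summed over the shared sites of each gene plus 1 kb upstream (regions with 10 or more sites and a level of 1% or more) and tested with edgeR 4.0.16 (quasi-likelihood, library terms plus a treatment effect on methylation, Benjamini-Hochberg over 15006 regions, threshold 0.05) in R 4.3.3. Python 3.11.15, numpy 2.4.6 and pandas 2.3.3 were used otherwise. Tested on simulated data of those 15006 regions, the fit recovered 83 of 100 regions lowered by 30 points and 18 of 100 lowered by 15 points, and called 11 unchanged regions. The spread between the simulated libraries was an assumed value, not one fitted to the data. Levels were only lowered, so these numbers do not cover a rise as in RPL.

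The 50 genes, their roles, the 28 further genes and the tests were chosen with earlier results of these data known. Named in the text were each gene with a shared site, those with the most listed sites in 1 library, and WUS, UFO, CUC2, AP1 and CAL. Alternatives changed the depth minimum, the contexts, the region, the smallest number of sites, the weighting and the libraries used. The sequence of the stretch upstream of PHV is not reported here.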

Additional observations from a re-analysis of the deposited data

How the results depend on the processing

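The number of genes with a shared site stayed between 14 and 18 of 50 under all alternatives but 1. With at least 10 reads in every library it was 7, and the range over leaving out each library was 17 to 18. Of the 73 CHG and CHH sites 56 remained at 5 reads. The mean CG difference of the list (-2.45 points) was -3.88 points with at least 10 reads (33 sites), -2.96 points inside genes alone, -1.93 points as an unweighted mean of sites, and between -3.11 and -2.11 points when 1 library was left out. The number of genes called (1, RPL) was 0 with at least 5 reads, 0 with at least 10 reads, 0 in CG alone and 0 inside genes alone. At an unadjusted p under 0.05 these 4 settings had 2, 0, 1 and 1 genes. CG sites alone and gene bodies alone leave out all sites of RPL. The number called was 0 to 1 when 1 library was left out, and it was 0 without mock 2, SNP 1 or SNP 2. Over all regions 593 were called, 353 with at least 5 reads, 1 with at least 10 reads and 69 to 395 when 1 library was left out (263 without mock 1, 395 without mock 2, 121 without SNP 1 and 69 without SNP 2). Of 97 values of single genes under alternatives, 90 kept their direction. The exceptions were log2 odds ratios near 0 that had not passed the test, namely PHV (-0.030 at 10 reads, -0.25 inside the gene, and -0.060 without mock 2 in a range of -0.060 to 0.25 over the libraries left out), REV (0.041 at 10 reads), SPL15 (0.29 without mock 1, range -0.21 to 0.29) and PAN (0.022 without sites in another gene, 0.091 without SNP 2, range -0.20 to 0.091). CNA was not called at 10 reads (-0.59, adjusted p = 0.568 in edgeR). The alternative without sites in another gene for the region test was chosen after seeing the data. Where no cause is given above, the cause was not tested.

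Libraries with the same replicate number share only that number. Their deviations from the group means correlated by 0.00609 over 15006 regions. With a replicate block 1 gene and 660 regions were called, against 1 and 593 without it, and the mean of the paired CG differences of the list was -2.45 points (-1.93 and -2.96 points for the pairs).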
